A study of Mus musculus with 11 samples.

Results

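Chromatin accessibility was examined around 10 mouse genes that mark luminal progenitor cells or encode milk proteins. The progenitor genes were Kit, Aldh1a3 and Plet1, and the milk genes were the caseins Csn2, Csn1s1 and Csn3, the whey protein genes Wap and Lalba, and Wfdc18 and Trf. An ATAC-seq peak was taken as a member when it overlapped the body of a listed gene or came within 50 kb of an annotated transcription start site (TSS) of that gene in mm10, and each peak went to the listed gene with the nearest TSS. This gave 89 of the 153396 counted peaks. Aldh1a3 had 20 member peaks, Plet1 17, Trf 15, Wap 10, Csn3, Lalba and Wfdc18 6 each, Kit 4, Csn2 3 and Csn1s1 2.

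The mammary epithelium has an outer basal layer and an inner luminal layer, and the luminal layer holds progenitor cells that give rise to the milk-secreting alveoli of pregnancy as well as mature, hormone-sensing cells. Kit is a receptor tyrosine kinase, Aldh1a3 an aldehyde dehydrogenase that makes retinoic acid and Plet1 a cell surface protein, and all 3 are commonly used to mark luminal progenitors in the mouse. The caseins form the micelles of milk. Wap is a whey protein, Lalba is the regulatory subunit of lactose synthase, Wfdc18 encodes a small secreted protein related to Wap, and Trf is the iron carrier transferrin. In lactation these genes are driven by prolactin through its receptor, the kinase Jak2 and the transcription factor STAT5, together with the glucocorticoid receptor, NFI and C/EBP factors. The cells studied here came from puberty, before lactation.

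TEBs (terminal end buds), which lead the growth of the ductal tree in puberty, and the subtending ducts were micro-dissected from female C57BL/6 mice at 5 weeks of age. All mice carried an E-cadherin-GFP reporter. Basal and luminal cells were sorted as Lin- CD24+ CD29+ cells with low or high GFP, and no further treatment or genotype separated the groups. The 11 libraries came from 3 mouse pools and gave basal duct (n = 2, replicates 1 and 3), basal TEB (n = 3), luminal duct (n = 3) and luminal TEB (n = 3), and a further basal duct sample that the study discarded for low cell number was not analysed here. The luminal sort does not separate progenitors from mature luminal cells. In such bulk samples fewer cells of a type with an open site and a less open site in each cell cannot be told apart.

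Libraries held 1821942 to 9986384 counts in peaks. The basal TEB libraries were the shallowest at 1821942, 2489582 and 2040392 counts, and they had 7.03% to 16.2% of their counts in mostly repeat-masked peaks against 2.4% and 2.45% in the basal duct libraries. Peaks at a TSS took 31.1% to 35.7% of basal TEB counts and 40.1% and 42.7% of basal duct counts. Summed promoter accessibility of 7 basal marker genes lay between 223 and 247 CPM (counts scaled to library depth with TMM factors) in basal duct libraries, 111 and 161 in basal TEB, 27.4 and 32.5 in luminal duct and 32.4 and 37.4 in luminal TEB, so the lineage labels held at these genes. The 5 pan-luminal markers summed to 233 to 284 CPM in luminal duct, 208 to 251 in luminal TEB, 149 to 174 in basal duct and 72.6 to 89.2 in basal TEB. Of markers of other cell types, 2 of 5 immune, 1 of 4 fibroblast, 1 of 4 endothelial and 0 of 4 adipocyte genes had a promoter peak, and Ptprc, Col1a1, Pecam1 and Adipoq had none. The immune sum was 5.62 to 19.9 CPM in basal TEB against 12.2 to 16.6 in basal duct, while luminal libraries had 17.8 to 18.7 (ducts) and 15.1 to 15.8 (TEBs). Of the other-cell markers, Csf1r of macrophages was higher in luminal cells in ducts (-2.62 ± 0.38, edgeR adjusted p = 1.4e-15) and TEBs (-2.87 ± 0.21, adjusted p = 1.1e-06). The other immune marker, Cd68, was not called in ducts (0.37 ± 0.20, adjusted p = 0.12) or TEBs (0.29 ± 0.54, adjusted p = 0.66). The endothelial Sox18 was higher in basal cells in ducts (2.34 ± 0.38, adjusted p = 1.1e-13) and TEBs (1.86 ± 0.46, adjusted p = 0.0027). The fibroblast Pdgfra was higher in basal cells in ducts (0.55 ± 0.21, adjusted p = 0.011) but not called in TEBs (0.14 ± 0.30, adjusted p = 0.83). It was lower in basal TEB than in basal duct (-0.99 ± 0.36, adjusted p = 0.032). The part of depth, masked reads and other cells in the results was not tested.

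The sequences on which the results turn are printed first, from GRCm38 (mm10), as the promoters of the caseins that had no accessible peak, the promoter of Plet1 and 4 of the peaks described below, which were picked after their values and motif matches were known. Promoters run from 250 bases before to 50 after the RefSeq start (GRCm38.p6, with 7 of the 10 genes matched), and peaks are shown by their central 300 bases. Capitals mark matches, on either strand, to any of 11 consensus motifs: STAT5 (TTCNNNGAA), glucocorticoid receptor (AGAACA), NFI (TTGGCA), C/EBP (TTGCNNAA), ETS (CNGGAAGT), FOX (TGTTTAC), AP-1 (TGANTCA), TEAD (GGAATG), RUNX (TGTGGT), GRHL (ACCNGGTT) and TFAP2 (GCCNNNGGC).
Csn2 promoter (chr5:87699376-87699675, minus strand): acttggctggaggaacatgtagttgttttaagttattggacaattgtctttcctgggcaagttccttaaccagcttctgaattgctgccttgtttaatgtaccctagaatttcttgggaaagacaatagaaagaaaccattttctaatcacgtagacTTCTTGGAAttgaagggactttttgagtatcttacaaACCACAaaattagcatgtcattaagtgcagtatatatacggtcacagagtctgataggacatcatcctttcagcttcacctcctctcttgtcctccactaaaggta
Csn1s1 promoter (chr5:87665958-87666257, plus strand): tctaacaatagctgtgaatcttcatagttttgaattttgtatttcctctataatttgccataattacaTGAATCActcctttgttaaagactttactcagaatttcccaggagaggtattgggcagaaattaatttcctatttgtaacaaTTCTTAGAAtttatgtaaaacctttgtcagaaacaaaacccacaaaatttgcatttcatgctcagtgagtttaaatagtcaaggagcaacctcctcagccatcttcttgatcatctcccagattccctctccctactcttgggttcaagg
Plet1 promoter (chr9:50494275-50494574, plus strand): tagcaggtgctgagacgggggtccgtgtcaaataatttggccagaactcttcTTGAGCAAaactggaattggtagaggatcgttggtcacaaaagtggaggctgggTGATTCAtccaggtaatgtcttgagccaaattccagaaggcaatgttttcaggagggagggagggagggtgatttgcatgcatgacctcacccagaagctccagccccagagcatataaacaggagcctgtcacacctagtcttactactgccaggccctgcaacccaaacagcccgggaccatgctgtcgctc
Plet1 peak 23.5 kb upstream (chr9:50470525-50470824, plus strand): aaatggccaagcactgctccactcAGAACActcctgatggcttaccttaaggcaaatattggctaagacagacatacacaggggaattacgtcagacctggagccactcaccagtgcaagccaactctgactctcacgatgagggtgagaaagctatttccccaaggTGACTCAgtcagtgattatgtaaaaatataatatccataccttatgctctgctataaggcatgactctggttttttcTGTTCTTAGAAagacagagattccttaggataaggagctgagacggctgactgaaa
Csn3 peak 0.5 kb upstream (chr5:87924586-87924885, plus strand): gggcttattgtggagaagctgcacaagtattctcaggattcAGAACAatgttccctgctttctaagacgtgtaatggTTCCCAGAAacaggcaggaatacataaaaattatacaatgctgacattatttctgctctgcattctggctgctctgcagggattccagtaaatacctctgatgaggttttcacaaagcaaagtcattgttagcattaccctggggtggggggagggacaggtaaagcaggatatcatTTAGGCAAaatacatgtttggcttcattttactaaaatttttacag
Trf peak 3.7 kb upstream (chr9:103234502-103234801, plus strand): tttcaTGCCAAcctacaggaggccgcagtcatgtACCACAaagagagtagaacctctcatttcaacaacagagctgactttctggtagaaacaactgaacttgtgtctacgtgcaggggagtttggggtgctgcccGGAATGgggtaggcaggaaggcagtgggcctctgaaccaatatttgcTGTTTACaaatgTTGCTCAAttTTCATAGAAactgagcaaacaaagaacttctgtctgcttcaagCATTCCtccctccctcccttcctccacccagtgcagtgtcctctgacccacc
Lalba peak 29.9 kb upstream (chr15:98512865-98513164, plus strand): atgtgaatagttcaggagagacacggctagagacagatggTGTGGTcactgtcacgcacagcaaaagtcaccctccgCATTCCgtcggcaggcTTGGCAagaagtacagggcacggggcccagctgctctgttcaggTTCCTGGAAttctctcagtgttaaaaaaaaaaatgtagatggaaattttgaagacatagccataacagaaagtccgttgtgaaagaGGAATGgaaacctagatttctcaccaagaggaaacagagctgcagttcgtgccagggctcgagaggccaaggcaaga

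A STAT5 match began 93 bases before the Csn2 start and 100 bases before the Csn1s1 start. The Csn2 window also held a RUNX match at -56 and the Csn1s1 window an AP-1 match at -182. In the Plet1 promoter the matches were C/EBP at -198 and AP-1 at -144. Kit, Plet1, Wap, Lalba and Wfdc18 had no STAT5 match in the RefSeq window, and Wap and Wfdc18 had no match there to any of the 11 motifs. The central windows of the Lalba and Aldh1a3 promoter peaks, not printed above, did hold a STAT5 match, at positions 220 and 205 of the window. The Lalba match lay outside the RefSeq window of that gene. The 4 peak windows printed above each held a STAT5 match, which overlapped a glucocorticoid receptor match in the Plet1 window, but they were picked with the matches known. Other peaks described below, such as those 49.9 kb upstream of Aldh1a3, 20.6 kb upstream of Plet1, 47.8 kb upstream of Csn1s1 and at the Csn3 TSS, held none. A match is a description and no site of binding. Over all members 11 of 89 windows held the STAT5 letters (12.4%), against 9.45% of all 153396 peak windows, and 8.30% of 32851 RefSeq promoter windows held them. AP-1 letters were in 17 member windows (19.1% against 25.9% of all windows), TEAD letters in 10 (11.2% against 21.2%) and TFAP2 letters in 15 (16.9% against 13.5%).

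Of the 89 peaks, 8 were at promoters (within 500 bp of a TSS of the gene), 37 upstream, 28 downstream, 13 in introns and 3 in coding exons. Of the upstream and downstream peaks, 8 lay at the promoter of a neighbouring gene (Lrrk1, Pts, Ramp3, Tbrg4, Nacad, Heatr6 or Srprb), and the Trf promoter peak also lay at the annotated start of Gm20425. Csn2, Csn1s1 and Wap had no promoter peak, whereas 68.2% of 21924 protein-coding genes had one. The peak nearest to Csn2 lay 26.5 kb upstream and that nearest to Csn1s1 43.3 kb upstream, both on chromosome 5 with the other casein genes. For Wap the nearest peak was in the gene, 2.2 kb after the TSS. The number of peaks per gene can be set beside the median of 9 peaks within 50 kb of a protein-coding gene (interquartile range 5 to 14): Csn1s1, Csn2 and Kit were under that range, and Aldh1a3, Plet1 and Trf were above it. Counts were low at many sites, with a mean under 10 counts per library at 29 of the 89 peaks.

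The promoters that were accessible differed in level. Values per kb of peak (RPKM, computed from counts in peaks) are used to compare genes. In luminal ducts the Plet1 promoter was the most open at 26.9 ± 3.74 RPKM (SD, n = 3), followed by the Csn3 peak at the TSS at 20.3 ± 6.72, Aldh1a3 at 13.3 ± 1.11, Wfdc18 at 11.9 ± 5.2, Kit at 6.75 ± 1.58, the Csn3 peak 0.5 kb upstream at 6.67 ± 1.13, Lalba at 4.94 ± 1.98 and Trf at 2.97 ± 0.437. Libraries of neighbours in this order overlapped at each step. Basal ducts gave another order, with Trf at 20.9 ± 0.0844 RPKM (SD, n = 2), Aldh1a3 at 17.2 ± 0.55, the Csn3 peak 0.5 kb upstream at 14.2 ± 0.755, Plet1 at 11.4 ± 1.21, Kit at 9.71 ± 1.85, Wfdc18 at 6.06 ± 0.932, the Csn3 peak at the TSS at 5.27 ± 0.205 and Lalba at 5.03 ± 0.913. Plet1 and Kit overlapped there, as did Wfdc18, the Csn3 TSS peak and Lalba. The median over promoter peaks of protein-coding genes was 18.4 RPKM.

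**Figure D1:**
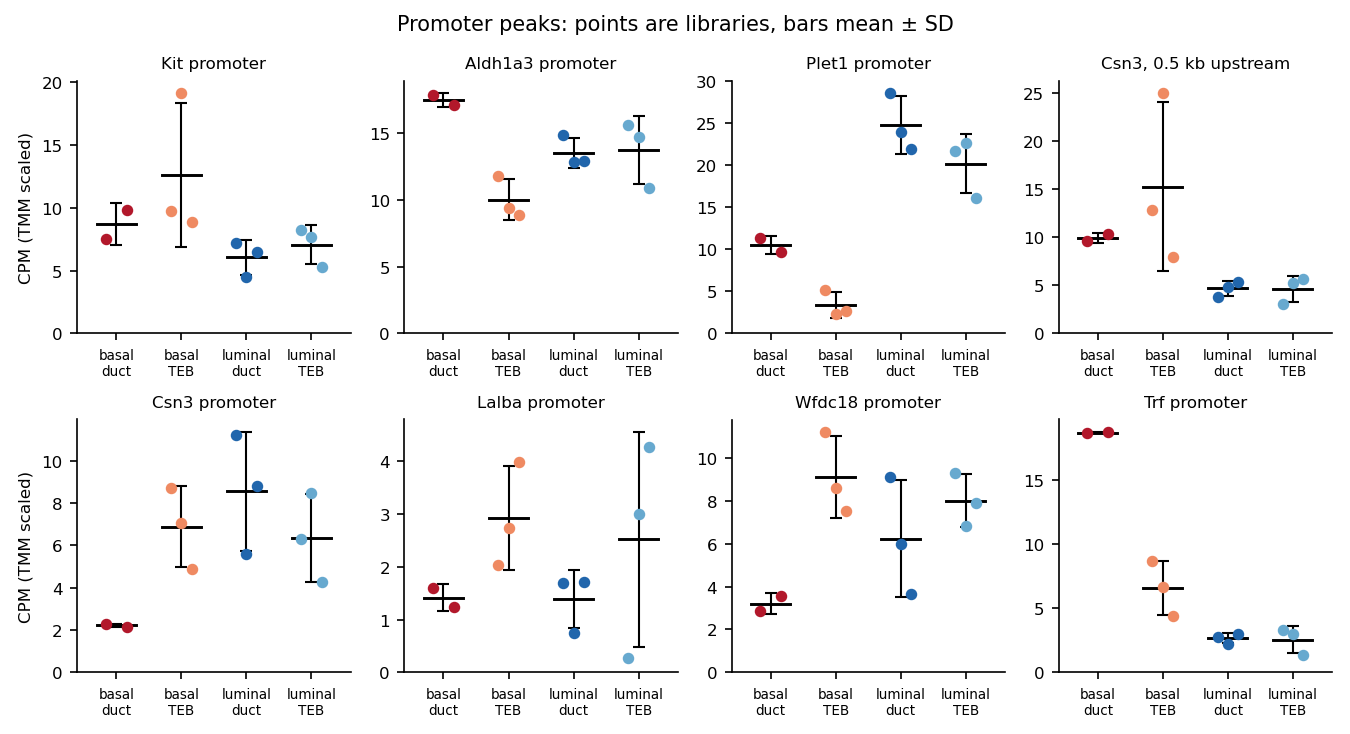
Promoter peaks of the 7 member genes that have one (Csn3 has 2 peaks), with accessibility in CPM on the y axis and the 4 cell populations on the x axis. Points are libraries and bars are the mean ± SD. The Plet1 promoter was highest in the luminal libraries (16.1 to 28.6 CPM) and the Trf promoter in the basal duct libraries (18.7 and 18.8 CPM).

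The first question was which of these sites differ between basal and luminal cells. Each pair of populations was tested with the exact test of edgeR over all peaks, and a peak was called differentially accessible (DA) at a Benjamini-Hochberg adjusted p under 0.05. Log2 fold changes are basal minus luminal, so a negative value means higher accessibility in luminal cells, with the standard error (SE) between libraries. In ducts 35 of the 89 member peaks were higher in luminal cells (39.3%, against 36.7% of all peaks) and 19 were higher in basal cells (21.3%, against 31.9%). In TEBs 18 were higher in luminal cells (20.2%, against 21.2%) and 11 in basal cells (12.4%, against 16.6%). These shares were near the background or under it and are no result about these genes. The median log2 fold change was -0.32 over members and -0.10 over all peaks in ducts, and -0.21 and -0.07 in TEBs. The libraries of the compared groups did not overlap at 70 member peaks in ducts and 45 in TEBs. The share over all peaks was not computed, so these 2 counts are no result about these genes either. With both structures together, 14 peaks were called higher in luminal cells in each of them, 8 were called higher in basal cells in each, and 1 peak, 3.7 kb upstream of Trf, was called in opposite directions. Joint shares over all peaks were not computed, so these joint counts are no result about these genes. Higher-in-luminal calls in TEBs numbered 9 with DESeq2, 11 with a filter on low counts, 11 without luminal TEB replicate 1 and 9 without luminal TEB replicate 2, and the split of 11 higher in basal and 18 higher in luminal became 14 and 12 when libraries were scaled on TSS peaks and 15 and 13 with loess offsets.

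**Figure D2:**
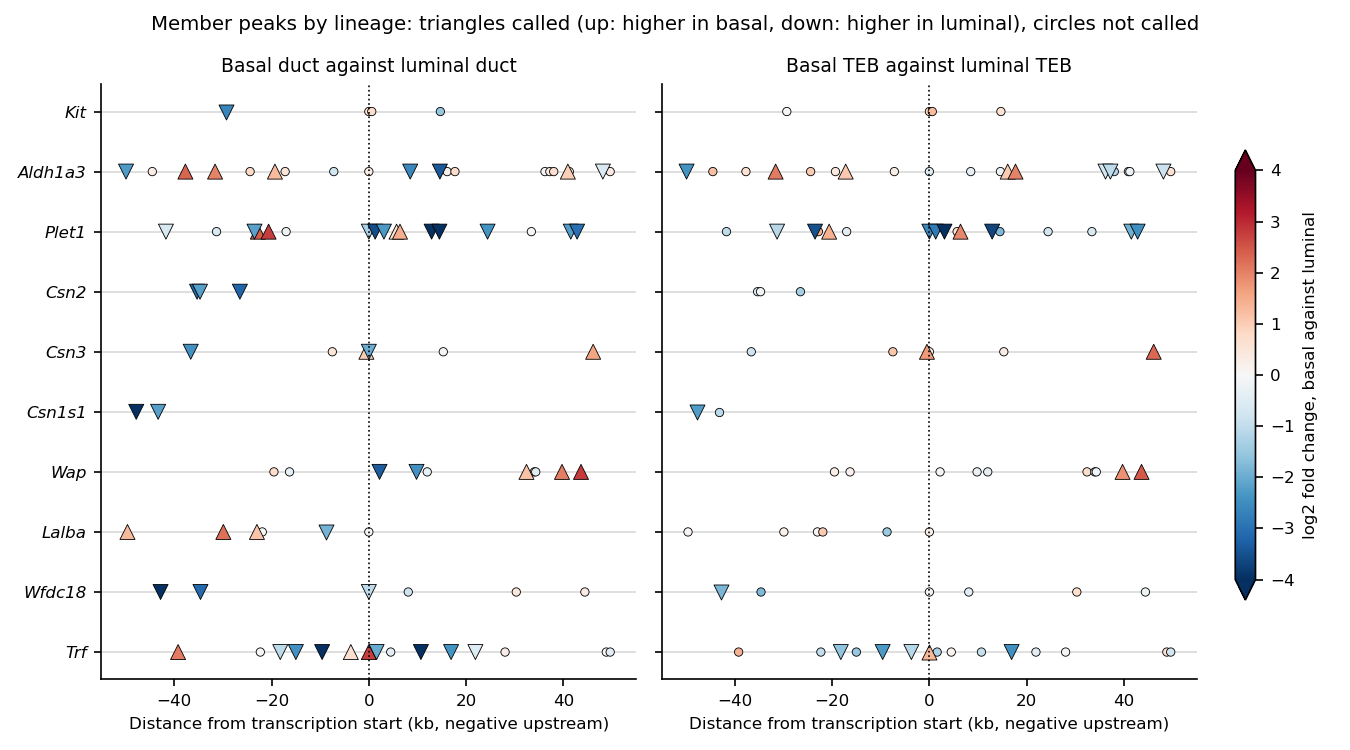
All 89 member peaks by gene (y axis) and distance from the TSS in kb (x axis), for ducts on the left and TEBs on the right. Triangles are DA peaks, pointing up where higher in basal and down where higher in luminal cells, circles are not called, and the colour is the log2 fold change. In ducts the 3 Csn2 peaks and both Csn1s1 peaks pointed down, while Plet1 had 10 peaks down and 4 up.

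Plet1 had the most luminal sites of the 10 genes by number, 10 in ducts and 8 in TEBs. These were 58.8% and 47.1% of its 17 peaks, against 36.7% and 21.2% of all peaks. By share Csn2 and Csn1s1 were above it in ducts (100% of 3 and 2 peaks), and Csn1s1 in TEBs (50%). Its promoter (chr9:50493977-50494897) had 28.6, 23.9 and 21.9 CPM in the luminal duct libraries and 21.7, 22.7 and 16.1 in luminal TEB, against 11.3 and 9.71 in basal duct and 5.11, 2.35 and 2.66 in basal TEB. Every luminal library was above every basal library. The log2 fold change was -1.29 ± 0.15 in ducts (edgeR exact test, adjusted p = 1.7e-10) and -2.61 ± 0.31 in TEBs (adjusted p = 7.3e-12). The peak 23.5 kb upstream (chr9:50470339-50471010), whose sequence is printed above, had 23.1, 26.5 and 17.6 CPM in luminal duct, 18.9, 29.2 and 23.4 in luminal TEB, 5.13 and 5.39 in basal duct and 2.56, 2.74 and 0.886 in basal TEB. It was -2.16 ± 0.18 in ducts (adjusted p = 3.6e-18) and -3.50 ± 0.40 in TEBs (adjusted p = 1.3e-17). Again the lineages did not overlap. Downstream of the gene, the peak 12.9 kb after the TSS was almost closed in basal cells at 0.935 ± 0.451 CPM in ducts (SD, n = 2) and 0.937 ± 0.573 in TEBs (n = 3), against 16.1 ± 3.64 and 11.8 ± 1.77 in luminal cells (n = 3 each). Its log2 fold changes were -4.07 ± 0.41 and -3.67 ± 0.31 (adjusted p = 9.2e-30 and 2.1e-12). In the intron peak 3.1 kb after the TSS the basal TEB libraries held 1, 2 and 0 counts, and the ratio of luminal to basal TEB was 24.2 (8.07 to 119), an exact 95% interval for counting error only.

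Not every Plet1 site was luminal. A peak 20.6 kb upstream (chr9:50473428-50473938), less than 3 kb from the luminal peak at 23.5 kb, was basal, with 18.3 and 14.2 CPM in basal duct, 6.65, 8.22 and 3.1 in basal TEB, 1.91, 2.05 and 3.01 in luminal duct and 2.47, 2.19 and 1.98 in luminal TEB. The log2 fold change was 2.75 ± 0.25 in ducts (edgeR adjusted p = 1.8e-22) and 1.42 ± 0.38 in TEBs (adjusted p = 0.016). The call in TEBs was lost without basal TEB replicate 2 (adjusted p = 0.12) and without luminal TEB replicate 2 or 3 (adjusted p = 0.063 and 0.067). The coding exon peak 6.4 kb after the TSS was also higher in basal cells, by 1.47 ± 0.15 in ducts and 1.96 ± 0.14 in TEBs (adjusted p = 3.7e-09 and 2.7e-06). The most accessible peak of the locus, 17.0 kb upstream, was open in all populations, with means of 49.3 ± 3.3, 31.6 ± 11.6, 54.3 ± 6.32 and 43.9 ± 7.85 CPM in basal duct, basal TEB, luminal duct and luminal TEB, and it passed no test. Altogether 10 of 17 Plet1 peaks were higher in luminal and 4 in basal ducts, and 8 and 2 in TEBs. The basal shares were 23.5% and 11.8%, against 31.9% and 16.6% of all peaks.

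Aldh1a3 was mixed. Its promoter (chr7:66427179-66428194) had 17.9 and 17.1 CPM in basal duct, 11.8, 9.39 and 8.86 in basal TEB, 14.8, 12.9 and 12.9 in luminal duct and 15.6, 14.8 and 10.9 in luminal TEB, and was called in neither lineage comparison (0.31 ± 0.07, adjusted p = 0.12 in ducts, -0.47 ± 0.18, adjusted p = 0.20 in TEBs). Its most accessible luminal site lay at the edge of the window, 49.9 kb upstream (chr7:66477420-66478066), with 23.3, 22.4 and 19.8 CPM in luminal duct and 20.9, 23 and 21.4 in luminal TEB. Basal libraries there had 5.47 and 3.85 CPM in ducts and 4.09, 5.87 and 2.22 in TEBs. The lineages did not overlap, with log2 fold changes of -2.26 ± 0.24 in ducts (adjusted p = 2.8e-24) and -2.38 ± 0.34 in TEBs (adjusted p = 3.8e-12). Inside the gene, a coding exon peak 17.7 kb after the TSS was higher in basal than in luminal TEBs, at 4.6, 8.61 and 5.32 against 0.823, 1.91 and 1.98 CPM (1.99 ± 0.37, adjusted p = 6.2e-04). Of 20 Aldh1a3 peaks 4 were higher in each lineage in ducts, and again 4 in each in TEBs. Each share was 20%. Over all peaks the shares were 31.9% (basal) and 36.7% (luminal) in ducts and 16.6% and 21.2% in TEBs.

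At Kit 1 of 4 peaks was called between lineages in ducts, as higher in luminal cells (25%, against 36.7% of all peaks). In TEBs 0 were called, against 16.6% of all peaks higher in basal and 21.2% in luminal cells. The promoter (chr5:75574585-75575479) had 7.52 and 9.86 CPM in basal duct, 9.71, 19.2 and 8.86 in basal TEB, 7.21, 4.48 and 6.45 in luminal duct and 8.23, 7.65 and 5.27 in luminal TEB. All basal libraries were above the luminal libraries of the same structure, but the difference of 0.46 ± 0.28 in ducts (adjusted p = 0.12) and 0.85 ± 0.38 in TEBs (adjusted p = 0.057) did not pass the test. The sole Kit call was at a peak of low counts 29.3 kb upstream, singled out after its values were seen, which was higher in luminal ducts (8, 9 and 13 counts against 4 and 1, -2.63 ± 0.40, adjusted p = 2.1e-04).

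The distal sites of Csn2 and Csn1s1 were luminal in ducts. Csn3 was mixed, with 2 of its 6 peaks (promoter peaks included) higher in basal ducts, 2 in luminal ducts and 2 not called. Its called shares were 33.3% each, against 31.9% (basal) and 36.7% (luminal) of all peaks. All 3 Csn2 peaks and both Csn1s1 peaks were higher in luminal than in basal ducts. The strongest was 47.8 kb upstream of Csn1s1 (chr5:87617966-87618415), with 57, 72 and 70 counts in the luminal duct libraries and 0 and 5 in basal duct, or 12.1, 13.4 and 15 against 0 and 0.77 CPM. The log2 fold change was -5.33 ± 0.86 (edgeR adjusted p = 2.9e-38). In TEBs the luminal libraries had 6.31, 7.65 and 5.6 CPM and the basal libraries 2.56, 0 and 1.77 (-2.24 ± 0.69, adjusted p = 2.5e-04), again without overlap. This peak is 67% repeat-masked, the only member over 50%, and mostly masked peaks took 4.46% to 5.96% of counts in luminal duct libraries and 5.58% to 7.21% in luminal TEB. The part of masked reads in this difference was not tested. At the peak 43.3 kb upstream luminal ducts had 5.09, 2.99 and 5.16 CPM and basal ducts 0.912 and 1.08 (-2.19 ± 0.26, adjusted p = 4.2e-06), a call that was lost with offsets for GC content (adjusted p = 0.27). The Csn2 peaks were faint. At 34.7 kb upstream the means were 2.66 ± 1.41 CPM in luminal duct (SD, n = 3) and 0.573 ± 0.157 in basal duct (n = 2), and the log2 fold change was -2.20 ± 0.46 (adjusted p = 0.0011). At 26.5 kb upstream luminal ducts held 8, 12 and 8 counts and basal ducts 2 and 1, a ratio of 9.67 (2.99 to 49.7), and that call too was lost with GC offsets (adjusted p = 0.069, log2 fold change -1.64 against -3.20). No Csn2 peak was called in TEBs.

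Csn3, the casein with an accessible promoter, had 2 promoter peaks with opposite lineage patterns in ducts. The peak 0.5 kb upstream (chr5:87924385-87925086) was basal, with 9.57 and 10.3 CPM in basal duct and 12.8, 25 and 7.98 in basal TEB against 3.82, 4.85 and 5.37 in luminal duct and 3.02, 5.19 and 5.6 in luminal TEB. All basal libraries were above all luminal libraries, with log2 fold changes of 1.02 ± 0.15 (adjusted p = 9.0e-05) and 1.74 ± 0.52 (adjusted p = 4.2e-04). The peak at the TSS (chr5:87925343-87925763) was higher in luminal ducts, at 11.2, 5.6 and 8.81 CPM against 2.28 and 2.16 (-1.99 ± 0.29, adjusted p = 1.5e-07). In TEBs its libraries overlapped between lineages (0.09 ± 0.32, adjusted p = 0.92).

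Neither whey protein gene had a promoter peak that was called between the lineages. At Wap the intron peak 2.2 kb after the TSS held 18, 4 and 9 counts in luminal duct and 0 and 3 in basal duct, a ratio of 10.7 (3.34 to 54.8), and the call was lost without basal duct replicate 1 (adjusted p = 0.080). Farther out, nearer to the start of Nacad, Wap had basal peaks. At 39.7 kb after the TSS basal cells had 22.8 ± 0.467 CPM in ducts and 20.3 ± 2.88 in TEBs, against 5.36 ± 1.55 and 5.61 ± 1.44 in luminal cells. The log2 fold changes there were 2.03 ± 0.22 and 1.83 ± 0.23 (adjusted p = 9.0e-20 and 6.9e-09), and at 43.6 kb they were 2.80 ± 0.55 and 2.45 ± 0.34 (adjusted p = 1.1e-07 and 5.1e-04). The Lalba promoter was faint everywhere, with 1.6 and 1.23 CPM in basal duct, 2.04, 2.74 and 3.99 in basal TEB, 1.7, 0.746 and 1.72 in luminal duct and 0.274, 3.01 and 4.28 in luminal TEB, and passed no test. The strongest Lalba peak, 29.9 kb upstream (chr15:98512662-98513367), was instead highest in basal ducts at 22.3 and 22.8 CPM, against 5.73, 3.17 and 5.37 in luminal ducts (2.20 ± 0.25, adjusted p = 7.5e-22). Its basal and luminal TEB libraries overlapped, at 2.56, 8.22 and 11.1 and 6.04, 7.92 and 5.27 CPM.

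Wfdc18 and Trf differed from each other. The Wfdc18 promoter (chr11:83708689-83709215) was lower in basal duct, at 2.85 and 3.54 CPM, than in luminal duct, at 9.12, 5.97 and 3.65 (-1.04 ± 0.39, adjusted p = 0.012). The groups stood just apart, and the call was lost without basal duct replicate 1 or 3 (adjusted p = 0.18 and 0.053), without luminal duct replicate 1 (adjusted p = 0.14), with DESeq2 and with GC offsets. A Wfdc18 peak 42.8 kb upstream, 3.2 kb from the start of Ccl4 and named after its values were seen, had 2 counts in all in basal ducts and 59 in luminal ducts, a ratio of 30.6 (8.1 to 258). Ccl4 is a chemokine gene of immune cells, and the macrophage marker Csf1r was higher in luminal cells too. Cd68, the other immune marker with a promoter peak, was not called in ducts (0.37 ± 0.20, edgeR adjusted p = 0.12). The part of immune cells in the difference at the peak 42.8 kb upstream was not tested. The Trf promoter (chr9:103230048-103230945) was basal, with 18.7 and 18.8 CPM in basal duct, 8.69, 6.65 and 4.43 in basal TEB, 2.76, 2.24 and 3.01 in luminal duct and 3.29, 3.01 and 1.32 in luminal TEB. All basal libraries exceeded all luminal libraries, by 2.75 ± 0.11 in ducts (adjusted p = 2.6e-28) and 1.32 ± 0.39 in TEBs (adjusted p = 0.011), where the call was lost with DESeq2 and without basal TEB replicate 1 or luminal TEB replicate 3 (adjusted p = 0.075, 0.066 and 0.096). Of 15 Trf peaks 7 were higher in luminal ducts (46.7%, against 36.7% of all peaks). Another 3, the promoter included, were higher in basal ducts (20%, against 31.9%). Among the 7 luminal peaks, the intron peak 10.7 kb after the TSS had no count in either basal duct library and 31 in luminal ducts, which puts luminal ducts at least 10.7-fold higher at a floor of 3 counts over the group, and the peak 9.6 kb upstream had 1 count in basal and 50 in luminal ducts, a ratio of 51.8 with a lower bound of 8.89. Both were picked out after their values were seen.

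**Figure D3:**
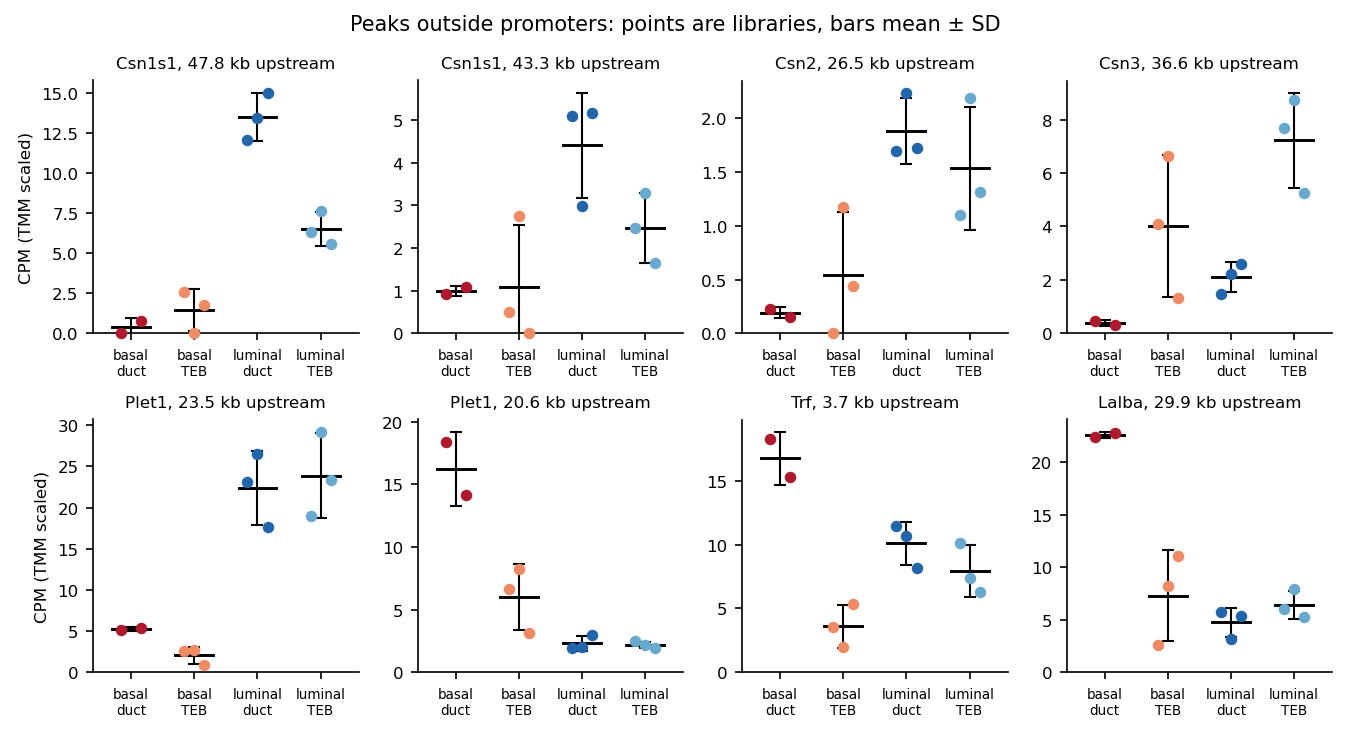
Named peaks outside promoters, with accessibility in CPM on the y axis and the 4 populations on the x axis. Points are libraries and bars are the mean ± SD. The peak 47.8 kb upstream of Csn1s1 stood at 12.1 to 15 CPM in luminal ducts and at or under 0.77 in basal ducts, and the peak 29.9 kb upstream of Lalba at 22.3 and 22.8 CPM in basal ducts.

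The next question was how TEBs differ from ducts within a lineage. In basal cells 7 member peaks were higher in TEBs (7.87%, against 8.29% of all peaks) and 13 were higher in ducts (14.6%, against 10%). In luminal cells 1 peak was higher in TEBs and 1 in ducts (1.12% each, against 0.437% and 0.688% of all peaks). Libraries of TEB and duct did not overlap at 44 member peaks in basal cells and 15 in luminal cells. No share over all peaks was computed here, so these counts are not read as a change in these genes. The median log2 fold change (TEB minus duct) of members was 0.08 in basal and -0.04 in luminal cells, beside 0.02 and 0.01 over all peaks. The basal split rests on few libraries and on the scaling. Without basal duct replicate 1, 0 peaks were higher in TEBs and 1 in ducts, and without replicate 3 the counts were 0 and 2; without basal TEB replicate 3, 7 peaks were higher in TEBs and 7 in ducts. Of the named basal TEB calls below, that at the Trf peak 3.7 kb upstream was the sole one kept both without basal duct replicate 1 and without replicate 3. With libraries scaled on TSS peaks, which moved the median over all peaks from 0.02 to 0.67, 13 members were higher in TEBs and 1 in ducts, and the split was 9 and 9 with library totals, 9 and 8 under loess scaling and 10 and 8 under scaling by GC bin. No called member turned its direction under those scalings or DESeq2.

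Among the basal peaks lower in TEBs were promoters. Trf had 8.69, 6.65 and 4.43 CPM in basal TEB against 18.7 and 18.8 in basal duct, with -1.52 ± 0.27 as the log2 fold change (edgeR adjusted p = 3.3e-04, or 0.10 without basal duct replicate 1). Plet1 fell by 1.67 on the log2 scale (SE 0.33, adjusted p = 0.0018, and 0.23 or 0.073 without basal duct replicate 1 or 3 and 0.062 with DESeq2), and Aldh1a3 by 0.81 (SE 0.13, adjusted p = 0.046), with no overlap of TEB and duct libraries at either. The Aldh1a3 call was lost under 11 alternatives, among them leaving out either basal duct library (adjusted p = 0.52 and 0.31) or basal TEB replicate 2 or 3 (0.070 and 0.23). Promoters as a class were lower in basal TEBs: over 13746 promoter peaks 35.8% were called lower and 0.647% higher, with a median of -0.65, and in luminal cells 2.95% and 0.16%. All 3 falls at member promoters have the sign of that shift. Its size depended on the scaling. The median over all TSS peaks was -0.64 in the main test, -0.52 with DESeq2 and -0.41 with library totals. It was -0.19 with GC-bin offsets, -0.17 with loess offsets and 0.02 with scaling on the TSS peaks themselves. With scaling on TSS peaks none of the 3 was called (log2 fold changes -0.87, -1.01 and -0.16).

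Outside promoters the fall in basal TEBs with the smallest p was 3.7 kb upstream of Trf (chr9:103234152-103235151). Basal duct libraries had 18.2 and 15.3 CPM and basal TEB 3.58, 1.96 and 5.32, while luminal duct had 11.5, 10.6 and 8.17 and luminal TEB 10.2, 7.38 and 6.26. The basal change was -2.23 ± 0.39 (adjusted p = 3.1e-06). This site was higher in basal than in luminal ducts (0.67 ± 0.19, adjusted p = 0.0021) and lower in basal than in luminal TEBs (-1.15 ± 0.39, adjusted p = 0.024), although the first of these calls was lost with TSS scaling and without basal duct replicate 1 (adjusted p = 0.052) and the second without basal TEB replicate 1 or 2 (0.051 and 0.15) or luminal TEB replicate 1 or 2 (0.19 and 0.065). The second was also lost with TSS scaling (adjusted p = 0.062), loess offsets (0.056) and DESeq2 (0.079). The Lalba peak 29.9 kb upstream fell by 1.60 (SE 0.59, adjusted p = 0.0011) and the Plet1 peak 20.6 kb upstream by 1.43 (SE 0.44, adjusted p = 0.0025). Their adjusted p was 0.14 and 0.30 without basal duct replicate 1, and 0.077 and 0.053 without replicate 3. With scaling on TSS peaks neither was called, at -0.96 (adjusted p = 0.077) and -0.78 (adjusted p = 0.14).

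Higher in basal TEBs were sites of milk genes and of Aldh1a3. The Csn3 peak at the TSS had 8.69, 7.04 and 4.88 CPM in basal TEB against 2.28 and 2.16 in basal duct (1.61 ± 0.24, adjusted p = 0.0073). The Wfdc18 promoter had 11.2, 8.61 and 7.53 against 2.85 and 3.54 CPM (1.51 ± 0.20, adjusted p = 0.0030), and the Aldh1a3 coding exon peak 17.7 kb after the TSS 4.6, 8.61 and 5.32 against 1.14 and 2.31 (1.88 ± 0.46, adjusted p = 0.0051). At all 3 every TEB library was above both duct libraries. The peak 36.6 kb upstream of Csn3 (chr5:87888595-87888963), which lies 2.9 kb from the start of the neighbouring gene Odam, had 4.09, 6.65 and 1.33 CPM in basal TEB and 0.456 and 0.308 in basal duct (3.29 ± 0.61, adjusted p = 0.0046). Without basal duct replicate 1 the adjusted p of these 4 was 0.28, 0.32, 0.48 and 0.20, and without replicate 3 it was 0.23, 0.11, 0.072 and 0.22.

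Luminal cells changed at 2 sites, both in the windows of caseins. The same peak 36.6 kb upstream of Csn3 was higher in luminal TEB, at 7.68, 8.74 and 5.27 CPM, than in luminal duct, at 1.48, 2.24 and 2.58 (1.78 ± 0.28, edgeR adjusted p = 3.6e-04), so that it was higher in TEBs in both lineages. The peak 47.8 kb upstream of Csn1s1 was lower in luminal TEB, at 6.31, 7.65 and 5.6 against 12.1, 13.4 and 15 CPM (-1.04 ± 0.15, adjusted p = 0.0030). TEB and duct libraries did not overlap at either peak. The second call was lost without luminal TEB replicate 1 (adjusted p = 0.056) or 3 (0.068), and the number of members lower in luminal TEBs was 2 without luminal duct replicate 2 or 3. In the quasi-likelihood test over 11 libraries the adjusted p was 0.050 for the Csn3 peak and 0.23 for the Csn1s1 peak, and neither was called.

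Whether the change between structures differed between lineages was asked in an interaction term, fitted by quasi-likelihood in edgeR to all 11 libraries, for the 79 members past a filter on low counts. At 5 peaks the signed TEB minus duct change was higher in basal cells and at 4 it was higher in luminal cells (against 7.54% and 6.47% of all peaks tested). As shares of the 79 members both counts were under this background and are no result about these genes. These counts were 8 and 2 with scaling on TSS peaks. The positive differences included the Csn3 peak at the TSS (2.08 ± 0.45, adjusted p = 0.0053), which rose in basal cells and had -0.40 in luminal cells, and the Csn1s1 peak 47.8 kb upstream (3.04 ± 1.11, adjusted p = 0.024), which fell in luminal cells. The negative ones were the Lalba peak 29.9 kb upstream (-1.97 ± 0.66, adjusted p = 0.0027), the Trf peak 3.7 kb upstream (-1.82 ± 0.46, adjusted p = 0.0052), the Plet1 promoter (-1.32 ± 0.38, adjusted p = 0.024) and a promoter peak of the neighbouring gene Lrrk1, 37.2 kb after the Aldh1a3 TSS (-1.42 ± 0.44, adjusted p = 0.023). At these 4 the fall was in basal cells and luminal cells passed no test. Both counts were unstable to single libraries. Without basal duct replicate 1 they were 1 and 2, and without basal TEB replicate 3 they were 3 and 2. The first fell to 2 or 3 without basal duct replicate 3, luminal TEB replicate 3 or luminal duct replicate 1 or 3, and the second was 8 without basal TEB replicate 2 and 2 without luminal TEB replicate 2 or luminal duct replicate 2.

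**Figure D4:**
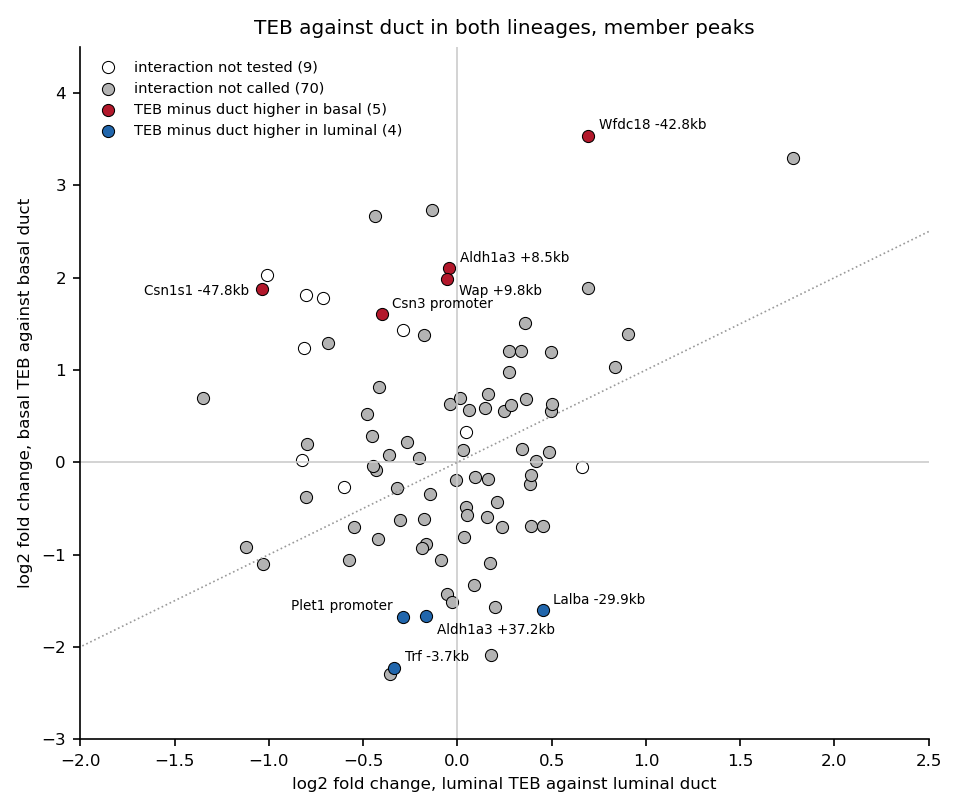
TEB against duct log2 fold change in luminal cells (x axis) and in basal cells (y axis) for 88 member peaks, leaving out the Trf peak with no count in basal ducts. Filled colours mark the 5 peaks with a higher signed change in basal cells (red) and the 4 with a higher one in luminal cells (blue), grey peaks were not called, open circles not tested, and the dotted line marks equal change. Luminal changes ran from -1.35 to 1.78 and basal changes from -2.29 to 3.54.

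Summed over each locus, without the 8 peaks at promoters of neighbouring genes, the 3 progenitor genes again differed. Plet1 had 195, 170 and 171 summed CPM in luminal duct, 134, 177 and 140 in luminal TEB, 125 and 124 in basal duct and 70.5, 89.6 and 58.1 in basal TEB, so that the lineages did not overlap in either structure. Aldh1a3 had nearly equal sums, with means of 94.1 ± 0.455, 85.7 ± 0.929, 87.2 ± 5.38 and 90.2 ± 2.33 in basal duct, basal TEB, luminal duct and luminal TEB (SD, n = 2, 3, 3 and 3). Kit had means of 14.2 ± 2.55, 20.5 ± 8.76, 12.5 ± 3.6 and 11.3 ± 3.02 in the same order. With TMM scaling the Kit libraries overlapped in every comparison. Csn1s1 was at 17.9 ± 2 in luminal duct and 8.99 ± 1.85 in luminal TEB against 1.38 ± 0.663 and 2.53 ± 0.673 in basal duct and TEB. Wfdc18 was lowest in basal duct at 7.4 ± 0.0085, below 16.6 ± 2.96 in basal TEB, 17.8 ± 4.83 in luminal duct and 22 ± 3.56 in luminal TEB. Lalba was highest in basal duct at 43.1 ± 2.72, with the other populations at 22.8 ± 5.56, 16.5 ± 3.52 and 20.8 ± 3.11. In each of these loci the peaks share a locus and its libraries, so the sums are given as a description.

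**Figure D5:**
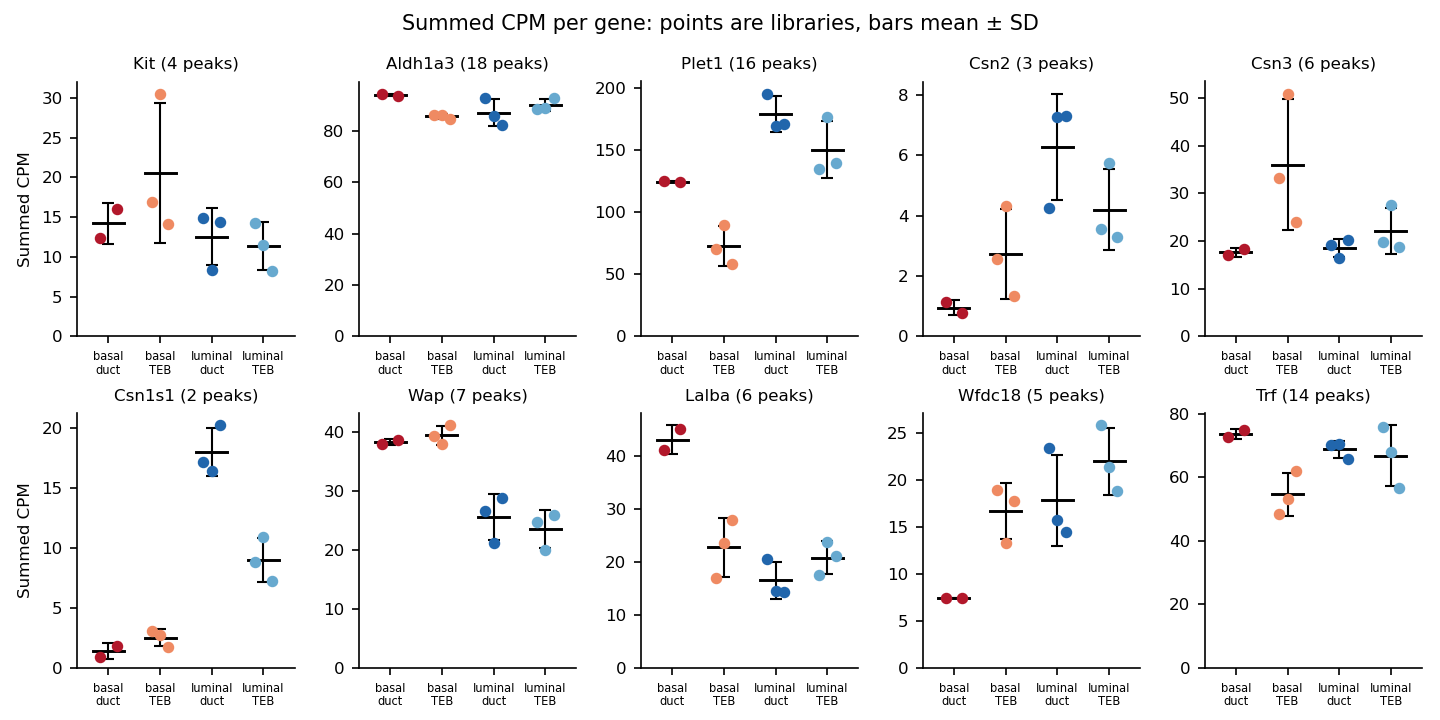
Summed CPM of member peaks per gene (y axis, peaks at promoters of neighbouring genes left out) in the 4 populations (x axis). Points are libraries and bars are the mean ± SD. The mean Plet1 and Csn1s1 sums were highest in luminal ducts and the mean Lalba sum in basal ducts.

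Promoters of other genes of the same programmes were read from lists chosen with earlier results known. Of 14 further luminal progenitor genes, all with a promoter peak, 6 were higher in basal and 3 in luminal ducts, against 44.2% and 11.9% of all promoter peaks (4 and 4 with scaling on TSS peaks). Higher in luminal ducts were Gabrp, a GABA receptor subunit (-3.71 ± 0.32, edgeR adjusted p = 7.3e-11), and Elf5, the ETS factor of alveolar fate (-2.17 ± 0.42, adjusted p = 1.7e-08). Higher in basal ducts were Sox10, a transcription factor also found in basal cells (2.62 ± 0.18, adjusted p = 2.1e-19), and Itgb3, the integrin chain CD61 (1.75 ± 0.09, adjusted p = 3.4e-19). In TEBs 0 were higher in basal and 3 in luminal cells (against 10.2% and 16.1%), among them Lypd3 (-1.0 ± 0.11, adjusted p = 9.5e-04) and Cd14, a lipopolysaccharide co-receptor (-0.79 ± 0.24, adjusted p = 0.019). Within basal cells 5 of the 14 were lower and 0 higher in TEBs, with a median of -0.53 beside -0.65 over all promoters, including the chemokine gene Cxcl1 (-1.23 ± 0.08) and the complement regulator Cd55 (-1.35 ± 0.34). With TSS scaling 0 were lower and 1 higher.

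Milk secretion genes other than the members had a promoter peak in 13 of 20 cases, and Csn1s2a, Csn1s2b, Glycam1, Ltf, Lpo, Spp1 and Atp2b2 had none. In ducts 3 were higher in basal and 2 in luminal cells, against 44.2% and 11.9% of all promoter peaks (2 and 5 with TSS scaling, 2 and 6 with GC offsets). In TEBs the counts were 1 and 3, against 10.2% and 16.1%. Folr1, a folate receptor, was higher in luminal cells in ducts (-2.06 ± 0.13, edgeR adjusted p = 1.9e-12) and TEBs (-2.10 ± 0.31, adjusted p = 9.3e-06), as were the lipase gene Cel in ducts (-2.06 ± 0.32, adjusted p = 7.2e-06) and the water channel gene Aqp5 in TEBs (-1.53 ± 0.30, adjusted p = 3.7e-04). Slc34a2, a phosphate transporter, was higher in basal cells in both structures (0.84 ± 0.16 and 0.87 ± 0.09, adjusted p = 8.2e-05 and 0.0048), and the lipid droplet gene Cidea in ducts (0.81 ± 0.24, adjusted p = 5.3e-04). In basal cells 3 of the 13 were lower and 0 higher in TEBs, under the 35.8% of all promoter peaks called lower, with a median of -0.48 beside -0.65 over all promoters. They included Cidea (-1.42 ± 0.24) and Xdh, needed for milk fat release (-0.87 ± 0.25). With TSS scaling 0 were lower, and with library totals, loess offsets, GC offsets or DESeq2 1 was lower.

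Lactogenic signalling genes, 12 in number, had promoter peaks throughout. In ducts 6 were higher in basal and 0 in luminal cells, with Cebpb (1.17 ± 0.10, edgeR adjusted p = 1.4e-16) and Stat5b (0.96 ± 0.06, adjusted p = 3.7e-06) first by p. The median of 0.35 lay beside 0.31 over all promoters, and the counts were 4 and 3 with TSS scaling and 4 and 4 with GC offsets. In TEBs 2 were higher in basal cells, Tnfsf11, the progesterone-induced cytokine RANKL (1.92 ± 0.45, adjusted p = 0.0041), and Cebpb (0.59 ± 0.21, adjusted p = 0.039). The 3 higher in luminal TEBs included the prolactin receptor Prlr (-0.95 ± 0.23, adjusted p = 0.0087) and its kinase Jak2 (-0.66 ± 0.16, adjusted p = 0.015). Within basal cells 7 of the 12 were lower in TEBs and 0 higher, against 35.8% and 0.647% of all promoter peaks, with a median of -0.81 beside -0.65, including Jak2 (-1.16 ± 0.17) and the glucocorticoid receptor Nr3c1 (-1.16 ± 0.27). None was called with TSS scaling or GC offsets, and 2 were lower with loess offsets. No gene of the 3 lists was called between luminal TEBs and luminal ducts.

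The promoters whose log2 CPM followed the 3 member genes with the highest promoter CPM (not divided by peak width) most closely over the 11 libraries were found by Pearson r, as a description with no p, since all share libraries and depth. For Plet1 these were Lgals3 (r = 0.979), Tmprss2 (0.978) and Anxa9 (0.977). Aldh1a3 was followed by Mgarp (0.954), Trir (0.945) and Krtcap3 (0.942). Kit, whose promoter passed no test, was followed less closely by Cmtm5 (0.875), Smim6 (0.859) and Smug1 (0.858).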

How the data were processed

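ATAC-seq was analysed in 11 mouse libraries of 4 sorted populations, grouped by the sample labels. The authors trimmed adapters, aligned reads to mm10 with Bowtie2 (2.3.4.3 in the submitters' processing notes), removed duplicates, called peaks with MACS2 on pooled replicates of each population, merged them with bedtools and dropped blacklisted regions. The authors deposited raw counts per merged peak for each library, made in SeqMonk, which were used as deposited. Because peaks were called on pools, a peak does not mean that each library had one.

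Peaks were annotated with GENCODE vM21 in Python 3.11.15. Pairs were tested with the edgeR 4.0.16 exact test (TMM factors and dispersions of the pair, Benjamini-Hochberg FDR 0.05 over all peaks) in R 4.3.3 and the interaction with the edgeR quasi-likelihood test after filterByExpr. CPM values are TMM-scaled over 11 libraries, and the SE is that between libraries on log2 CPM (prior count 2) (limma 3.58.1 fitted the loess offsets). The interaction SE combines the SEs of the 2 TEB against duct comparisons. No SE given is the error of the fitted coefficient, and the prior count damps it at low counts. The scripts were tested on simulated counts. Intervals cover counting error only, and reads after duplicate removal carry no molecular identifiers.

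The members, comparison lists and motifs were chosen with earlier results of these data known. Named peaks were each gene's promoter peak (or the nearest), its most accessible peak, the 4 called members per comparison and direction with the smallest p, the 6 with the smallest interaction p, 2 called promoters per list and direction, and the 3 promoters most like those of the 3 member genes with the highest promoter CPM. Members called in the text outside this rule are marked. Alternatives were library totals, TMM from TSS peaks, loess and GC-bin offsets, filterByExpr, the quasi-likelihood test over 11 libraries, DESeq2 1.42.0, a replicate block and leaving out each library. No source used here says whether equal replicate numbers mark a shared mouse pool.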

Additional observations from a re-analysis of the deposited data

Results flagged for a closer look

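Interaction calls at members, 5 and 4 of 79 tested, were under the shares of all peaks tested (7.54% and 6.47%). At 6 named peaks, picked as the called members with the smallest interaction p, the TEB minus duct change differed between lineages by the edgeR quasi-likelihood interaction test. The difference, basal minus luminal on the log2 scale, was -1.97 at the Lalba peak 29.9 kb upstream, -1.82 at the Trf peak 3.7 kb upstream, -1.42 at the Lrrk1 promoter peak 37.2 kb after the Aldh1a3 TSS and -1.32 at the Plet1 promoter. It was 2.08 at the Csn3 peak at the TSS and 3.04 at the Csn1s1 peak 47.8 kb upstream, where basal libraries held 0 to 5 counts. The Plet1, Aldh1a3 and Csn1s1 differences each lost the call without some single library, and the Csn1s1 peak is mostly repeat-masked. The cause was not tested.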

How the results depend on the processing

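No called member peak changed sign under the scaling alternatives or DESeq2, but splits of counts did turn. Higher in basal TEB than basal duct were 7 members, against 13 with TSS scaling, 4 with DESeq2, 11 with the quasi-likelihood test over 11 libraries and 0 to 7 leaving out single libraries. Lower were 13, against 1 with TSS scaling, 6 with filterByExpr, 8 with loess or GC offsets, 5 with DESeq2, 19 with the quasi-likelihood test over 11 libraries and 1 to 14 leaving out single libraries. The 5 lower and 0 higher promoters of other progenitor genes became 0 and 1 with TSS scaling, and their median moved from -0.53 to 0.12. With library totals the mean Aldh1a3 sum was higher in basal TEB (91.6) than in basal duct (86.2). In luminal cells, 1 higher and 1 lower in TEBs became 0 and 0 with DESeq2 and with the quasi-likelihood test over 11 libraries, and the lower count ranged from 0 to 2 leaving out single libraries. Of 153394 peaks in that pair 18689 had an unadjusted p under 0.05. Between TEB lineages, 11 higher in basal became 7 with DESeq2, and 18 higher in luminal became 11 with filterByExpr, 9 with DESeq2 and 9 to 18 leaving out single libraries. The 5 interactions higher in basal cells became 8 and the 4 higher in luminal cells 2 with TSS scaling, and 1 to 7 and 2 to 8 leaving out single libraries. Of 56 calls at named peaks, TSS scaling lost 12, leaving out basal duct replicate 1 lost 17 of 39 and replicate 3 11 of 39; the cause was not tested.

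Same-numbered libraries did not deviate together in every pair (r of 0.059, 0.112 and 0.073 for luminal TEB and duct), so the replicate numbers were not taken as pairs. With a replicate block, 2 members in place of 1 were lower in luminal TEBs and 2 of the 56 named calls were lost.

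Basal duct has 2 libraries and basal TEB libraries are the shallowest. A mean under 10 counts stood at 29 members.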

Other observations

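The windows of the member genes also hold 8 promoter peaks of neighbouring genes. The Tbrg4 promoter, 12.0 kb after the Wap TSS, was open in all populations, with means of 22.7 ± 7.89, 14.1 ± 3.85, 27.4 ± 4.17 and 18.6 ± 1.85 CPM in basal duct, basal TEB, luminal duct and luminal TEB, and passed no test. The Heatr6 promoter, 44.4 kb after the Wfdc18 TSS, passed none either (15.4 ± 4.8, 11.6 ± 2.95, 11.5 ± 2.54 and 13.4 ± 4.06 CPM). The Srprb promoter, 28 kb after the Trf TSS, was lower in basal TEB than in basal duct (-0.84 ± 0.19, edgeR adjusted p = 0.029), a call that 10 of 13 alternatives lost. It was lost without any of basal duct replicates 1 and 3 and basal TEB replicates 1 and 3 (adjusted p = 0.46, 0.26, 0.076 and 0.14). Library totals, TSS scaling, filterByExpr, loess offsets, GC offsets and DESeq2 lost it too. The Pts promoter, 33.4 kb after the Plet1 TSS, was lower in basal TEB too (-0.93 ± 0.36, adjusted p = 0.030), as was the Nacad promoter, 32.4 kb after the Wap TSS (-1.06 ± 0.37, adjusted p = 0.014). Of 13 alternatives, 9 lost the Pts call and 8 the Nacad call, and both were lost without basal duct replicate 1 (adjusted p = 0.56 and 0.53), basal duct replicate 3 (0.16 and 0.079) or basal TEB replicate 3 (0.21 and 0.11). The Nacad promoter was also higher in basal than in luminal ducts (1.18 ± 0.27, adjusted p = 8.6e-08), a call that 0 of 13 alternatives lost. Of 2 Lrrk1 promoter peaks near Aldh1a3, the one 37.2 kb after the TSS was lower in basal TEB than in basal duct (-1.66 ± 0.39, adjusted p = 7.5e-04), a call lost without basal duct replicate 1 or 3 (adjusted p = 0.19 and 0.055). Both Lrrk1 peaks were lower in basal than in luminal TEB (-1.04 ± 0.39, adjusted p = 0.029 at 37.2 kb and -0.77 ± 0.20, adjusted p = 0.037 at 36.2 kb), and 9 and 10 of 14 alternatives lost these calls, with adjusted p of up to 0.19 and 0.14 leaving out single libraries. The Ramp3 promoter, 19.5 kb upstream of Wap, passed no test. Pts, Nacad, Ramp3 and the peak at 36.2 kb were named after their values were seen.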
